A study of Homo sapiens with 18 samples.

Results

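Poised distal loci were defined as merged H3K4me1 intervals that lay more than 2 kb from every protein-coding transcription start site (TSS), overlapped an H3K27me3 interval and overlapped no H3K27ac interval. Of 34932 H3K4me1 loci, 23923 were distal and 480 of these met the rule. Of the other distal loci, 16441 carried neither H3K27me3 nor H3K27ac and were called primed, 6784 carried H3K27ac without H3K27me3 and were called active, and 218 carried both. No measured change under treatment entered the rule, and each locus was represented by its widest interval in each modification.

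The cells were MOLM-13, an established human acute myeloid leukemia line with a rearrangement of KMT2A, the gene of an H3K4 methyltransferase. They received 100 nM PR-957, an inhibitor of the immunoproteasome subunit PSMB8, or the solvent DMSO, for 72 h according to the sample labels. Histone modifications were profiled by Cut&Tag, in which an antibody directs a transposase to the modified chromatin, and 2 libraries were available for each treatment and modification. All groups came from 1 line, and the labels do not say whether the 2 libraries came from separate cultures, so that p-values measure the spread between libraries, which may be technical. The comparison asked whether a locus carried more or less of a modification after PSMB8 inhibition.

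Enhancers are regulatory DNA that acts on promoters from a distance, and H3K4me1 is laid down on them by KMT2C and KMT2D. Active enhancers also carry H3K27ac, whereas H3K27me3, the product of Polycomb repressive complex 2, occupies the same lysine in silenced chromatin. Distal elements with H3K4me1 and H3K27me3 were described in stem cells near developmental genes and named poised, because many gain acetylation when the cell differentiates. In bulk chromatin the overlap of both modifications does not show that they lie on the same allele or in the same cell, and a change within every cell and a change in the share of marked cells cannot be told apart.

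Loci on which the results turn, 5 in number, are shown by the 300 bases in the middle of the locus, from the forward strand of hg38, with every CpG in capitals. CHCHD6 is a locus where the 2 modifications differed in their response under every refit of the interaction that was made. KCNN3 and RTN4RL1 are examples of higher and lower H3K4me1, and MEF2C and NR2F2 had the smallest p-values for lower H3K27me3. Each locus is named after the protein-coding gene with the nearest TSS, which need not be its target, and none of these windows overlapped an annotated exon.
CHCHD6, chr3:126910704-126911003: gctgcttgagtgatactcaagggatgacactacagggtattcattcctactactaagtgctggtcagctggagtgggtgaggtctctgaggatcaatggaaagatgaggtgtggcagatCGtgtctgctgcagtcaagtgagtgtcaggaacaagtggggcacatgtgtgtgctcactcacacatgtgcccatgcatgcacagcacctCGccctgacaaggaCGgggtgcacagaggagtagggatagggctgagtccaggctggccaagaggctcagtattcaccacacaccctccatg
KCNN3, chr1:154729907-154730206: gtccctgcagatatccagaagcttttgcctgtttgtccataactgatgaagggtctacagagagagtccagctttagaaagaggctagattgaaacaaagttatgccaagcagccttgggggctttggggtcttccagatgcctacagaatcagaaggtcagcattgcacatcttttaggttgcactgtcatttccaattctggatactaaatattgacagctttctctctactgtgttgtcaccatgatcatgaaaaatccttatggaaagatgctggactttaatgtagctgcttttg
RTN4RL1, chr17:1999542-1999841: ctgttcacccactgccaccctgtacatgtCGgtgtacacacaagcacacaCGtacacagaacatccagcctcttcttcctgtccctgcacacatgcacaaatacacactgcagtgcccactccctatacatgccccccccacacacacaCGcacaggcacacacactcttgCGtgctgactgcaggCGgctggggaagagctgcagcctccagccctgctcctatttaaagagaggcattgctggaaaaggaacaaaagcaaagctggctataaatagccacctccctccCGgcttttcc
MEF2C, chr5:88675055-88675354: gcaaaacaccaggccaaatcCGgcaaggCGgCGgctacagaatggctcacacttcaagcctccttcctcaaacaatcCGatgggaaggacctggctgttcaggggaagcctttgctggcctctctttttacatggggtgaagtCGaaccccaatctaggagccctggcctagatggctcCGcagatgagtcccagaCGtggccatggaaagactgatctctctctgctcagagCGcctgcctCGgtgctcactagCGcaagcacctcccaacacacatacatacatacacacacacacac
NR2F2, chr15:96359355-96359654: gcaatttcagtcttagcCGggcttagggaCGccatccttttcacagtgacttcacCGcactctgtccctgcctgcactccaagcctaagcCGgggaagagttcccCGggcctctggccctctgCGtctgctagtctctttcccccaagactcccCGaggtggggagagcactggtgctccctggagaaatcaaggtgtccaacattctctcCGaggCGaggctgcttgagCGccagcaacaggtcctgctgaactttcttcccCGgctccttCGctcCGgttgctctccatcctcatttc

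The windows differed in CpG content. The KCNN3 window held 0 CpG, that near CHCHD6 held 3 and that near RTN4RL1 held 6, whereas those near MEF2C and NR2F2 held 10 and 13. Over all 480 poised loci the middle window held a median of 6 CpG, against 2 in primed and 3 in active loci. At least 15 CpG stood in 16.7% of the poised windows, 0.554% of the primed, 2.34% of the active and 5.93% of all H3K4me1 windows.

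Short motifs were searched in these windows on both strands, as a description of the letters and not of binding. The PU.1 motif GAGGAAG, after the myeloid master regulator, stood in 15.8% of the poised, 12.4% of the primed, 12.7% of the active and 12.6% of all windows. At 50 to 60% GC the shares lay closer, at 16.5%, 15.4%, 14.8% and 15.1%. Among the 5 windows shown the PU.1 motif was found near MEF2C. The RUNX motif TGTGGT, present in the CHCHD6 window, stood in 25.4%, 24.5%, 23.9% and 23% of the same sets. The MEIS motif TGACAG, present in the KCNN3 window, stood in 19.6%, 20.5%, 21.4% and 20.4%. The AP-1 motif TGANTCA stood in 12.5%, 13.3%, 12.7% and 11.9%. The CEBP motif TTGCNNAA was held by 13.3%, 18.1%, 16.3% and 16.2%, and at 50 to 60% GC by 10.5%, 11.5%, 12.2% and 11.1%. The HOX with PBX motif TGATTNAT was held by 3.96%, 5.44%, 4.17% and 4.34% of the windows of any GC content.

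The GATA motif AGATAA was held by 9.38% of the poised, 18.5% of the primed, 14.7% of the active and 15.6% of all windows. Among windows of 50 to 60% GC it was held by 8% of 200 poised, 8.95% of 3207 primed, 8.99% of 2159 active and 8.35% of all 8966 such windows. The CpG run GCGCGC stood in 4.38% of the poised, 0.298% of the primed, 0.899% of the active and 1.95% of all windows, and among windows of 50 to 60% GC in 1%, 0.748%, 1.2% and 1.44%. The HOX with PBX motif, less frequent in poised than in primed windows of any GC content, was more frequent at 50 to 60% GC. There it stood in 3.5% against 2.21%, from only 7 of 200 poised and 71 of 3207 primed windows. The AP-1 motif turned in the same way, with 14.5% against 12.1% at 50 to 60% GC. The MEIS motif stayed less frequent, with 19.5% against 22.6%.

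The loci were more CpG-rich and lay nearer to genes than primed and active loci, and in this they were close to the 218 distal loci with both H3K27me3 and H3K27ac. Their median GC content was 53.1%, with quartiles of 48.7 and 57.8%, against 43.2% in primed and 46.5% in active loci. The median density of CpG was 2.13 per 100 bp in poised, 0.950 in primed and 1.25 in active loci. The 218 loci with both modifications had 57.1% GC and 2.76 CpG per 100 bp. The median width was 2930 bp, with a range from 952 to 13273 bp, and the median distance to the nearest protein-coding TSS was 12076 bp, against 12988 bp in the 218 loci with both modifications. Within 10 kb of a TSS lay 216 of the 480 (45%), against 29.8% of primed, 30.1% of active and 43.6% of the 218 loci. Of the 480, 275 were intergenic, 130 intronic and 75 overlapped an exon, while 124 overlapped a long non-coding RNA gene. Chromosome 17 held 52 (10.8%), against 3.92% of the primed loci, and chromosome X held 1.

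**Figure D1:**
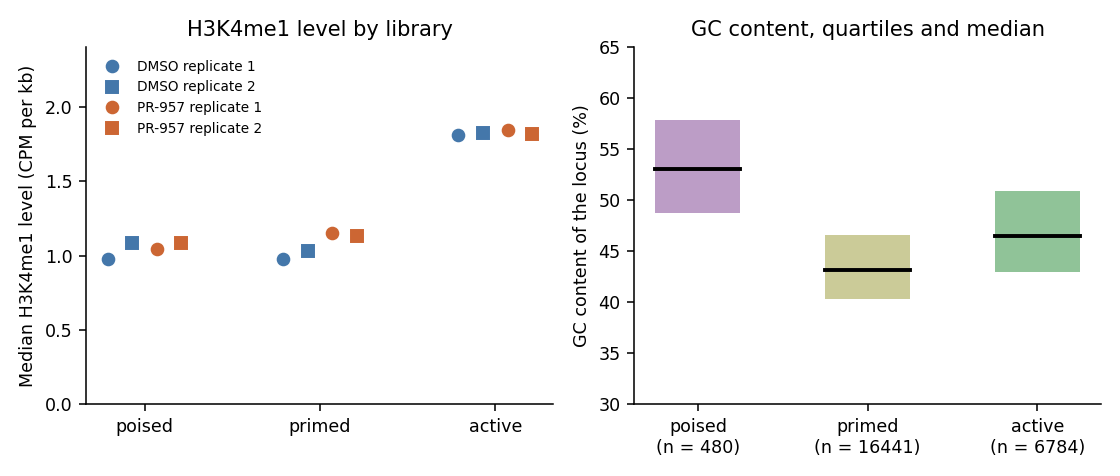
H3K4me1 level and GC content by class of distal locus. Left, the median H3K4me1 level over the loci of a class in CPM per kb, with 1 point per library (DMSO or PR-957, replicate 1 or 2); right, the GC content in percent, with a box from the lower to the upper quartile and a line at the median (53.1% for poised, 43.2% for primed and 46.5% for active loci). The poised and primed loci lay close to each other in H3K4me1 level and both lay below the active loci.

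The nearest genes numbered 400, and 62 of them were nearest to more than 1 poised locus. GSE1, which encodes a subunit of a CoREST-type histone deacetylase complex, was nearest to 7 and the homeobox gene DLX4 to 4. Genes of the developmental transcription factor list were nearest to 54 of the 480 loci (11.3%), against 1.42% of the primed and 1.18% of the active loci. The loci just inside the distance limit lay near RHBG at 2019 bp, NANOS2 at 2060 bp and SUN1 at 2091 bp, with H3K4me1 log2 fold changes of 0.83, 0.47 and -0.35. Those just outside lay near RASL12 at 1995 bp, PRDM13 at 1952 bp and TSPAN18 at 1941 bp, with -0.48, 0.51 and -0.49.

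Levels are given in CPM, the counts of an interval relative to the TMM-adjusted size of its library, and per kb of interval where loci are compared. The poised loci had a median of 1.02 CPM per kb under DMSO, close to the 1.00 of primed loci and below the 1.81 of active loci. Library by library their median was 0.980 and 1.08 under DMSO and 1.04 and 1.09 under PR-957. The ratio of the poised to the primed median was 1.00 and 1.05 under DMSO and 0.906 and 0.962 under PR-957, so that the treatments did not overlap. With 2 libraries against 2 the exact permutation test gave p = 0.333, the smallest it allows. The ratio to the active median was 0.542 and 0.595 under DMSO and 0.567 and 0.598 under PR-957, which did overlap (two-sided exact permutation test, p = 0.667).

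The highest H3K4me1 levels belonged to loci near FOXS1, a forkhead gene, at 4.64 CPM per kb, TEX26 at 4.30 and the teneurin gene TENM4 at 3.70. The widest poised loci lay near TBX21, the T-bet gene of lymphocytes, at 13273 bp, near NACC2 at 12122 bp and near the VEGF receptor gene FLT1 at 11877 bp. The locus farthest from any TSS lay 309368 bp from TSNARE1, followed by 296918 bp for NFE2L3 and 267374 bp for TRABD2B. None of these 9 loci was called in H3K4me1 (edgeR, lowest adjusted p = 0.185, near TBX21).

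H3K27me3 at these loci came as intervals that often extended past the H3K4me1. The median H3K27me3 interval measured 8206.5 bp, 217 of the 480 loci lay in one over 10 kb and 128 in one over 20 kb. It covered 246 loci from end to end, at least 50% of the length of 352 and under 25% of 55. Since 28 intervals held more than 1 poised locus, up to 4, the 480 loci shared 446 intervals in 441 merged H3K27me3 loci, and the H3K27me3 value of a locus is that of its whole interval. The median DMSO level was 2.25 CPM per kb. It was 7.08 at the loci whose interval reached within 2 kb of a TSS and 1.41 at the others. H3K27me3 loci without H3K4me1 that lay over 2 kb from every TSS had 0.777, to be set against the 1.41. The densest H3K27me3 at poised loci lay near the neural transcription factor genes ZIC2 at 45.3, UNCX at 39.8 and ONECUT3 at 38.1 CPM per kb. At the other end, 2 loci had 0 counts in a library and 15 were too sparse for the test, which leaves 465.

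H3K4me3, the modification of promoters, overlapped 95 of the 480 poised loci (19.8%), against 1.87% of primed and 29.9% of active loci. The identity of the cells was checked by H3K4me3 at promoters of marker genes. An interval was present at 9 of 10 myeloid genes, with MPO at 0, at 2 of 4 B-cell genes, at 1 of 4 erythroid and at 0 of 4 T-cell genes. Total counts per library were 15204186 to 30584219 in H3K4me1, 10032503 to 12047958 in H3K27me3 and 30070119 to 44591150 in H3K4me3. The median poised locus held 42 to 79.5 counts per library in H3K4me1 and 177 to 246.5 in H3K27me3, which gives H3K4me1 the larger counting error.

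Few poised loci changed in H3K4me1 after PR-957. Of the 480, 4 were higher and 3 lower (edgeR's quasi-likelihood test, adjusted p under 0.05), which is 7 or 1.46%, against a background of 1.94% of all tested intervals, 1.24% higher and 0.701% lower. An unadjusted p under 0.05 was found for 71 loci, and for 2896 of 16435 tested primed and 1133 of 6784 active loci. Counts at an unadjusted p, here and below, have no share over all tested intervals beside them. DESeq2 called 0 of the poised loci, but gave an adjusted p to only 59 of them. The median log2 fold change was -0.0028, against -0.0011 over all tested intervals.

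The clearest H3K4me1 gain lay in an intron of KCNN3, the gene of a calcium-activated potassium channel, at chr1:154728447-154731665. Its level was 0.881 and 1.3 CPM under DMSO and 4.43 and 4.09 CPM under PR-957, from 26, 31, 69 and 94 counts. Both PR-957 libraries stood above both DMSO libraries, and the log2 fold change was 1.98 ± 0.31 (SE, n = 2 against 2, edgeR adjusted p = 1.88e-06). Among the edgeR alternatives that kept all libraries its adjusted p was at most 1.58e-04, whereas DESeq2 gave it no adjusted p. Leaving out single libraries moved the log2 fold change between 1.71 and 2.26. H3K27me3 covered 22.4% of this locus and held 6 to 18 counts per library, with a log2 fold change of -0.35 ± 0.69 (SE, edgeR adjusted p = 0.882).

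The locus 43448 bp from UBAC2, at chr13:99150274-99157326, was higher in H3K4me1 and lower in H3K27me3. UBAC2 encodes a ubiquitin-associated protein of the endoplasmic reticulum. Its H3K4me1 level was 7.72 and 8.91 CPM under DMSO and 10.7 and 13 CPM under PR-957, without overlap, with a log2 fold change of 0.52 ± 0.14 (SE, edgeR adjusted p = 0.0268). This call was lost under DESeq2, with 1 interval per locus and without DMSO replicate 1, DMSO replicate 2 or PR-957 replicate 2, where the adjusted p reached 0.383. In H3K27me3 it stood at 105 and 101 CPM under DMSO and at 67.1 and 66.8 CPM under PR-957, a log2 fold change of -0.62 ± 0.074 (SE, edgeR adjusted p = 5.43e-12) that was called in all 14 alternatives. The H3K27me3 interval, chr13:99133328-99151908, covered 23.2% of the H3K4me1 locus, and the TSS nearest to that interval was that of DOCK9. A second poised locus near UBAC2, chr13:99142855-99147744, lay in an overlapping H3K27me3 interval that was also lower (-0.64, edgeR adjusted p = 1.86e-12). Its H3K4me1 was 6.91 and 6.81 CPM under DMSO and 6.1 and 5.61 CPM under PR-957 and was not called (-0.24, edgeR adjusted p = 0.531).

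The other gains lay 44019 bp from LOXL4, a collagen cross-linking oxidase gene, and 3655 bp from ARHGAP31, which encodes an inactivator of small GTPases. LOXL4 rose from 4.40 and 4.14 CPM to 6.16 and 7.48 CPM (log2 fold change 0.68 ± 0.19, SE, edgeR adjusted p = 0.028). ARHGAP31 rose from 2.71 and 2.26 CPM to 4.49 and 4.52 CPM (0.85 ± 0.24, SE, edgeR adjusted p = 0.0355). Their H3K27me3 was not called, with log2 fold changes of -0.30 and -0.33. Leaving out single libraries ended the call of LOXL4 for 3 of the 4 libraries, where the adjusted p reached 0.267, and that of ARHGAP31 for each of the 4, where it reached 0.215. Counting 1 interval per locus ended both.

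The 3 losses lay near ASAP1, CLXN and RTN4RL1. ASAP1, an Arf GTPase-activating gene, fell from 8.13 and 11.3 CPM to 7.12 and 5.04 CPM (log2 fold change -0.69 ± 0.16, SE, edgeR adjusted p = 0.00604). The locus 205525 bp from CLXN, the gene of a calcium-binding protein of motile cilia, fell from 17.5 and 20.6 CPM to 13.8 and 14.1 CPM (-0.45 ± 0.12, SE, edgeR adjusted p = 0.0277). The intronic RTN4RL1 locus, in a gene of the Nogo receptor family, fell from 4.81 and 5.18 CPM to 3.59 and 2.39 CPM (-0.77 ± 0.23, SE, edgeR adjusted p = 0.0431). In each the treatments did not overlap, and the calls were lost without at least 2 of the 4 libraries, the highest adjusted p being 0.398, at RTN4RL1. The RTN4RL1 call was also lost with library sizes alone, with GC-trend offsets and with a mean count of at least 50, and the CLXN call under DESeq2 and cyclic loess. A second poised locus at RTN4RL1 was not called (0.43, edgeR adjusted p = 0.644). The CLXN locus was also lower in H3K27me3, from 47.8 and 46.8 CPM to 32.4 and 38.0 CPM (-0.42 ± 0.10, SE, edgeR adjusted p = 0.00139). There the adjusted p was at most 0.115 in the alternatives, and the call was lost with library sizes alone and without PR-957 replicate 1.

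**Figure D2:**
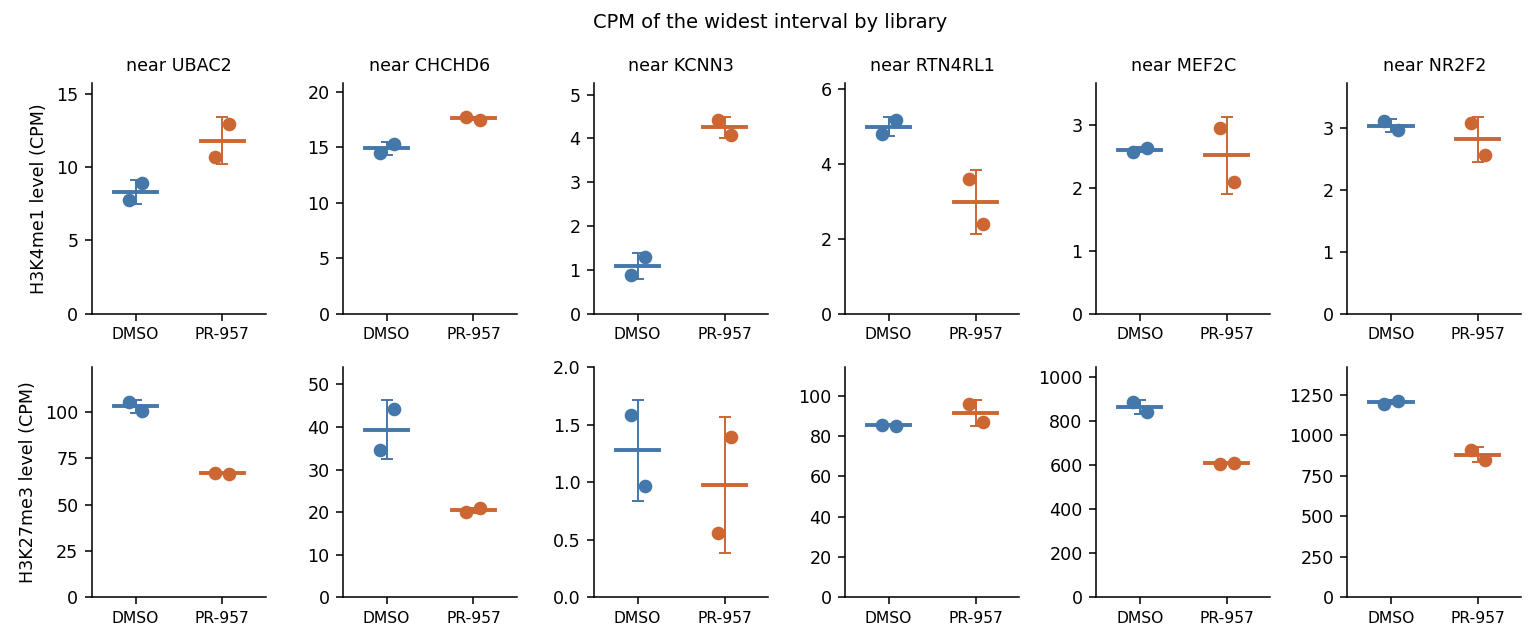
Levels of 6 poised loci in each library, H3K4me1 above and H3K27me3 below, in CPM of the widest interval on axes that start at 0 and differ between panels. Points are the 2 libraries of a treatment, horizontal bars their mean and vertical bars the SD. KCNN3 and UBAC2 stood higher under PR-957 in H3K4me1, RTN4RL1 stood lower, and UBAC2, CHCHD6, MEF2C and NR2F2 stood lower in H3K27me3.

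The median H3K4me1 log2 fold change of poised loci lay below that of primed loci, and GC content moved with the gap. Primed loci had a median of 0.18, with 349 called higher and 35 lower of 16435 tested, and active loci had -0.016, with 98 higher and 59 lower of 6784. The gap of poised to primed was -0.18 and ranged from -0.23 to -0.012 over 14 alternatives. It was smallest where the trend of the fold change on GC content was removed, which put the poised median at 0.080 and the primed median at 0.093. Under 45% GC, where 10640 primed and 37 poised loci lay, the medians were 0.25 and 0.093. From 45 to 50% GC they were 0.066 for primed and 0.11 for poised loci, and from 50 to 55% they were -0.0062 and -0.087. From 55 to 60% they were -0.041 and -0.019, and at 60% or more -0.012 and -0.086. With the GC trend removed, poised lay below primed under 45% (0.0344 against 0.0957), from 50 to 55% (0.0103 against 0.0825) and at 60% or more (0.0485 against 0.129). It lay above from 45 to 50% (0.145 against 0.0875) and from 55 to 60% (0.0986 against 0.0838). Whether GC content accounts for the gap was not tested.

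**Figure D3:**
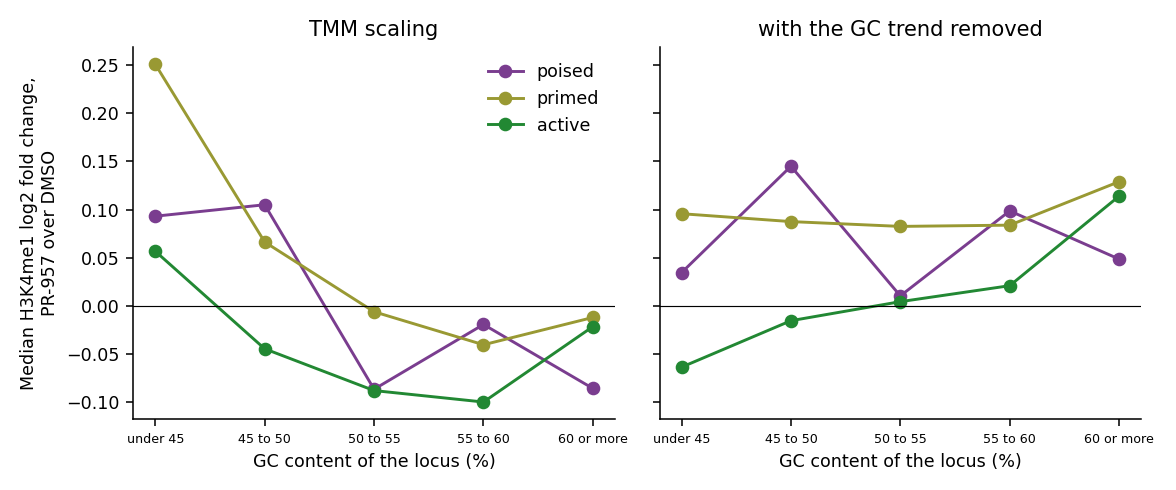
Median H3K4me1 log2 fold change, PR-957 over DMSO, of poised, primed and active distal loci in bins of GC content in percent. Left, TMM scaling, where the primed median ran from 0.25 under 45% GC to -0.012 at 60% or more; right, with the GC trend removed, where it ran from 0.096 to 0.13. The highest bin held 76 poised, 37 primed and 166 active loci.

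H3K27me3 changed more often, and mostly downward under the main scaling. Of 465 loci tested, 95 were lower and 6 higher after PR-957 (edgeR's quasi-likelihood test), and 147 had an unadjusted p under 0.05. The share lower was 20.4%, against a background of 5.09% lower and 0.824% higher over all tested intervals, and of 3.2% lower over the widest interval of every H3K27me3 locus. Counted once each, the intervals called were 82 lower and 6 higher of 431. The median log2 fold change was -0.069, against 0.016 over all tested intervals.

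This split depended on how the libraries were scaled. Scaling by library size alone gave 58 lower and 54 higher with a median of 0.093, while 2.20% of all tested intervals were lower and 4.78% higher under that scaling. Cyclic loess offsets gave 54 and 36, against 3.03% and 2.51% of all tested intervals. Offsets that removed the trend on counts per kb gave 61 and 32, against 2.83% and 2.35%. Offsets on GC content gave 96 and 5, against 5.00% and 0.462% of all tested intervals. Median-of-ratios factors gave 90 and 6, against 4.82% and 0.858%. The median of all tested intervals lay 0.16 lower on the log2 scale under TMM than under library size alone. Under all 6 scalings, 43 loci in 36 intervals were called lower and 5 higher. The share of all tested intervals called under all 6 is not given here, so these counts have no background beside them.

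The calls lay mostly in wide intervals, as they did outside the poised loci. Of intervals up to 5 kb, 1.20% were lower at poised loci and 0.255% at other H3K27me3 loci. From 5 to 10 kb the shares were 8% and 3.45%, from 10 to 20 kb 25.9% and 13.5%, and over 20 kb 50% of 104 and 41.0% of 305. The median log2 fold change over 20 kb was -0.18 at poised and -0.12 at other intervals. These shares and medians are those of TMM scaling. Of the 128 poised loci in intervals over 20 kb, 63 were lower and 3 higher under TMM, 42 and 31 with library sizes alone (median -0.015), 31 and 30 under cyclic loess (median 0.0070) and 39 and 24 with offsets on counts per kb (median -0.029). Wide intervals also held more counts. Where the interval reached within 2 kb of a TSS, 68 of 175 loci were lower (38.9%), against 27 of 290 elsewhere (9.31%). Whether width, depth or position accounts for these shares was not tested.

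**Figure D4:**
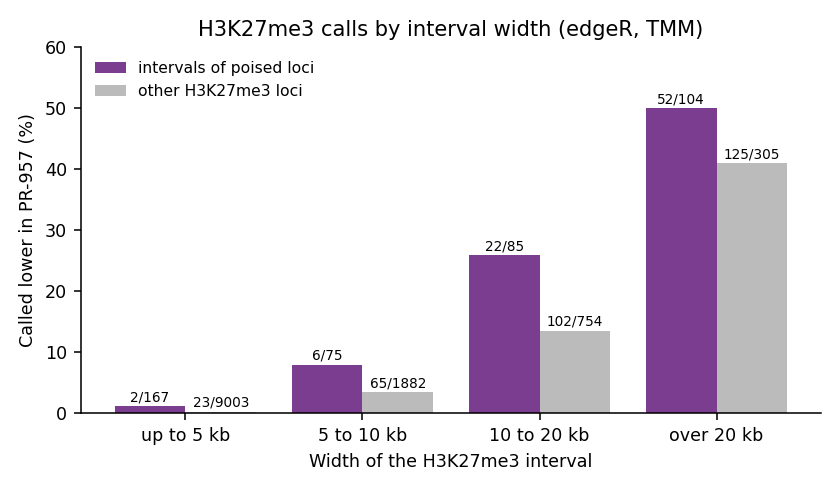
Share of H3K27me3 intervals called lower in PR-957 (edgeR, TMM scaling), in percent, by width of the interval, for intervals of poised loci and for other H3K27me3 loci, with the number lower and tested above each bar. At poised loci the share ran from 1.20% up to 5 kb to 50% over 20 kb, and at other loci from 0.255% to 41.0%.

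The smallest p-value belonged to the interval chr5:88659267-88696965 next to MEF2C, a transcription factor gene on the list of KMT2A targets. It measured 37698 bp and held 2 poised loci, at chr5:88659435-88662068 and chr5:88674113-88676296, which overlapped a long non-coding RNA gene 67451 and 53223 bp from the MEF2C TSS. H3K27me3 stood at 886 and 843 CPM under DMSO and at 608 and 609 CPM under PR-957, a log2 fold change of -0.51 ± 0.046 (SE, edgeR adjusted p = 1.88e-17). Over the 14 alternatives the fold change ranged from -0.57 to -0.29 and stayed called. H3K4me1 at the first locus was 1.15 and 1.34 CPM under DMSO and 1.93 and 1.57 CPM under PR-957, without overlap but not called (log2 fold change 0.48, edgeR adjusted p = 0.600). H3K4me1 at the second locus, 2.57 and 2.63 CPM under DMSO and 2.95 and 2.09 CPM under PR-957, overlapped between treatments (log2 fold change -0.071, edgeR adjusted p = 0.932).

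The locus 24644 bp from NR2F2, the COUP-TFII nuclear receptor gene, lay at chr15:96357807-96361202 in an interval of 57286 bp. H3K27me3 stood at 1195 and 1213 CPM under DMSO and at 912 and 846 CPM under PR-957 (log2 fold change -0.45 ± 0.044, SE, edgeR adjusted p = 7.57e-16). Near SP9, a regulator of interneuron development, it fell from 360 and 352 CPM to 252 and 248 CPM (-0.51). Near TLCD5 it fell from 296 and 272 CPM to 192 and 201 CPM (-0.53), in an interval whose nearest TSS was that of ARHGEF12. Near PTK2, the focal adhesion kinase gene, it fell from 2294 and 2228 CPM to 1746 and 1689 CPM (-0.40). In all 4 the treatments did not overlap and the call held in each of 14 alternatives, with adjusted p of at most 5.28e-05. The size moved with the alternative, from -0.52 to -0.22 at NR2F2 and from -0.46 to -0.12 at PTK2. Offsets on counts per kb were not among the 14 alternatives here, nor among those at MEF2C and UBAC2.

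The gains in H3K27me3 were smaller and less stable. TCF3, the E2A gene of lymphoid development, had 316 and 307 CPM under DMSO and 366 and 348 CPM under PR-957 (log2 fold change 0.20 ± 0.051, SE, edgeR adjusted p = 0.00401). C1orf159 had 70.1 and 73.8 CPM under DMSO and 95.7 and 83.7 CPM under PR-957 (0.31 ± 0.076, SE, edgeR adjusted p = 0.00178). ABCC3, a drug transporter gene, rose by 0.27 on the log2 scale, GRIP2, a glutamate receptor scaffold gene, by 0.34 and MYH14, a nonmuscle myosin gene, by 0.27. Each of the 5 lost its call with 1 interval per locus and without at least 2 of the 4 libraries, and the highest adjusted p was 0.558, at GRIP2.

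Among loci near developmental transcription factor genes, the regulators of organ and tissue identity that Polycomb holds silent in most cells, 29 of 51 tested were lower in H3K27me3 and 0 higher, in 24 of 44 intervals. The share lower was 56.9% and the median log2 fold change -0.28, against 20.4% and -0.069 over all poised loci. Scaling by library size alone gave 22 lower and 5 higher, cyclic loess offsets 12 and 4, and offsets on counts per kb 18 and 3, and 9 were lower under all 6 scalings. The median of the list became -0.12, -0.052 and -0.090 under these 3, against 0.093, -0.043 and -0.063 over all poised loci. Their H3K27me3 was also denser. Over 20 kb, 26 of 35 loci of the list were lower under TMM (74.3%) at a median of 19.6 CPM per kb, against 37 of 93 other loci (39.8%) at 8.03 CPM per kb. These shares were 62.9% and 21.5% with library sizes alone, 31.4% and 21.5% under cyclic loess, and 48.6% and 23.7% with offsets on counts per kb. DESeq2 gave an adjusted p in H3K27me3 to 41 of the 54 and called 28 lower and 0 higher. In H3K4me1 0 of the 54 were called by edgeR, with 7 at an unadjusted p under 0.05. DESeq2 called 0 in H3K4me1 too, but gave an adjusted p to only 4 of the 54, so its 0 says little. The list was written by gene name prefix and also holds genes with known roles in blood such as GATA3, FOXO1, SOX4 and TBX21.

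Several of these genes, chosen after their values were seen, show the size of the change. Near HAND2, a regulator of heart and limb development, H3K27me3 fell from 991 and 958 CPM to 741 and 724 CPM (log2 fold change -0.41 ± 0.045, SE, edgeR adjusted p = 1.1e-13). The HOXD cluster held 3 poised loci, near EVX2, HOXD1 and HOXD3, in 1 interval of 136886 bp. It fell from 5154 and 4950 CPM to 4068 and 3708 CPM (-0.38 ± 0.040, SE, edgeR adjusted p = 3.14e-14). Near PAX2, a kidney and eye regulator, it fell from 2166 and 2124 CPM to 1800 and 1696 CPM (-0.30). The other 2 poised loci nearest to PAX2 lay in intervals that were not called, at -0.037 (edgeR adjusted p = 0.797) and -0.095 (edgeR adjusted p = 0.381). Near ZIC2 it fell from 2886 and 2788 CPM to 2360 and 2235 CPM (-0.30). The 3 loci of this list with the highest H3K4me1 gave other values. FOXS1 had an H3K27me3 log2 fold change of -0.35 (edgeR adjusted p = 0.823), TBX21 of 1.16 (edgeR adjusted p = 0.521) from 4 to 18 counts per library, and a second HAND2 locus was too sparse to test.

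Blood transcription factors were nearest to 10 loci, among them those at GATA3, GFI1B, IRF4, IRF8, MEF2C and TCF4. Lower H3K27me3 was called at 3 (30%, against 20.4% over all poised loci) and higher at 0. The 3 were IRF4 and the 2 MEF2C loci, which shared 1 interval, so that 2 of 7 intervals were lower. DESeq2 gave an adjusted p to 6 of the 10 loci and called 2 lower and 0 higher. IRF4, a lymphoid and myeloid regulator, went from 153 and 154 CPM to 121 and 142 CPM (log2 fold change -0.22 ± 0.063, SE, edgeR adjusted p = 0.0124). The 3 GFI1B loci, near a repressor of the erythroid and megakaryocytic lineages, shared 1 interval at 152 and 151 CPM under DMSO and 141 and 137 CPM under PR-957, which was not called (-0.12, edgeR adjusted p = 0.324). The KMT2A target list held 3 loci, those of MEF2C and 1 at GNAS, the stimulatory G protein gene, where H3K27me3 fell from 131 and 125 CPM to 107 and 96.9 CPM (-0.33, edgeR adjusted p = 9.52e-05). That list was taken from genes the study named as lower in RNA after PR-957, so its choice was not independent of the study. RNA is another measure than H3K27me3, and how the 2 relate at these loci was not tested.

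The growth factor, adhesion and ion channel lists held 7 to 11 loci each, too few to set 0 or 1 call apart from the background of 5.09% lower in H3K27me3 and 1.94% called in H3K4me1. Growth factor ligands and receptors (BMP2, BMP8A, FGFR3, NOG, TGFB2, WNT1 and WNT7B) were nearest to 7 loci with 0 called by edgeR in either modification. Of these, 2 in H3K4me1 and 1 in H3K27me3 had an unadjusted p under 0.05. DESeq2 also called 0, but gave an adjusted p to 0 of the 7 in H3K4me1 and to 2 in H3K27me3. FGFR3, for example, lay in dense H3K27me3 of 12.5 CPM per kb with a log2 fold change of 0.056 (edgeR adjusted p = 0.640). Adhesion and guidance genes had 11 loci with 1 call, lower H3K27me3 near the netrin gene NTN1 (-0.27, edgeR adjusted p = 0.0125). The ion channel and transmitter receptor list had 10 loci, with the KCNN3 gain in H3K4me1 and, in H3K27me3, GRIP2 higher and 1 of 2 HTRA1 loci lower (-0.26, edgeR adjusted p = 0.0104). GRIP2 is a scaffold and HTRA1 a protease, and both entered that list through their name prefix. Genes of histone writers and erasers were nearest to 0 poised loci.

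Under TMM scaling the poised loci that also carried H3K4me3 were more often lower in H3K27me3, 33 of 95 (34.7%) against 62 of 370 without it (16.8%). Cyclic loess offsets gave 20 lower and 6 higher with H3K4me3, against 34 and 30 without it (medians -0.052 and -0.036). Library sizes alone gave 20 and 8 against 38 and 46 (medians 0.022 and 0.10). Offsets on counts per kb gave 21 and 5 against 40 and 27. The median DMSO density of H3K27me3 was 4.54 CPM per kb with H3K4me3 and 2.04 without. Over 20 kb the counts lower under TMM were 24 of 33 and 39 of 95, from 10 to 20 kb 6 of 22 and 17 of 67, and up to 10 kb 3 of 40 and 6 of 208. H3K4me3 itself was called at 0 of the 95 by edgeR, against a background of 0.226% of all tested intervals, with 10 at an unadjusted p under 0.05, and at 0 by DESeq2. Its median log2 fold change at these loci was 0.15, against -0.0010 over all tested intervals, and 28 of 95 were below 0. The smallest adjusted p was 0.0782 near OSTM1.

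The difference between the responses of H3K4me1 and H3K27me3 was tested by an interaction term over 1924 H3K4me1 loci that overlapped H3K27me3. Of the 465 poised loci, 13 were called (edgeR), 11 with H3K4me1 above H3K27me3 and 2 below, and 94 had an unadjusted p under 0.05. The split turned with library sizes alone, where 9 were above and 16 below, and was 7 above and 8 below without H3K4me1 DMSO replicate 1. The background over the 1924 loci was 0.988% above and 0.728% below, and the median difference at poised loci was 0.11. The 11 lay near UBAC2, CHCHD6, TEX26, GPAM, ZFHX3, ZFHX4, LDLRAD4, DMRT3, PTK2 and, with 2 loci, CD300E, and 10 of them were also called lower in H3K27me3. The 2 below 0 lay near RTN4RL1 and IRF2BP1.

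CHCHD6, a gene of the mitochondrial cristae, and UBAC2 kept the call in all 12 alternatives. Those alternatives used TMM factors or library sizes alone. The interaction was not refitted with cyclic loess, GC-trend or counts-per-kb offsets. At chr3:126907659-126914048, in an intron of CHCHD6, H3K27me3 fell from 34.5 and 44.2 CPM to 20.0 and 20.9 CPM (log2 fold change -0.95 ± 0.12, SE, edgeR adjusted p = 4.12e-11). H3K4me1 there was 14.5 and 15.3 CPM under DMSO and 17.7 and 17.5 CPM under PR-957, which did not overlap but was not called (0.24, edgeR adjusted p = 0.306). The difference of the 2 log2 fold changes was 1.19 ± 0.18 (SE, edgeR adjusted p = 1.48e-04). At UBAC2 it was 1.15 ± 0.16 (SE, edgeR adjusted p = 3.9e-05).

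At TEX26, among the loci of highest H3K4me1, H3K27me3 fell from 8.89 and 9.87 CPM to 6.58 and 3.33 CPM and the difference was 1.12 (edgeR adjusted p = 0.0237). At LDLRAD4, which encodes a negative regulator of TGF-beta signalling, neither modification was called by itself, with 0.79 in H3K4me1 and -0.29 in H3K27me3, and the difference was 1.10 (edgeR adjusted p = 0.0349). At RTN4RL1 the difference was -0.88 ± 0.21 (SE, edgeR adjusted p = 0.0277), and H3K27me3 stood at 85.6 and 84.9 CPM under DMSO and at 95.9 and 86.9 CPM under PR-957. These 3 lost the call in 3, 7 and 6 of 12 alternatives, where the adjusted p reached 0.181, 0.188 and 0.193. The number called fell to 2 without either DMSO library of H3K27me3 or its PR-957 replicate 2, and was 3 without its PR-957 replicate 1.

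**Figure D5:**
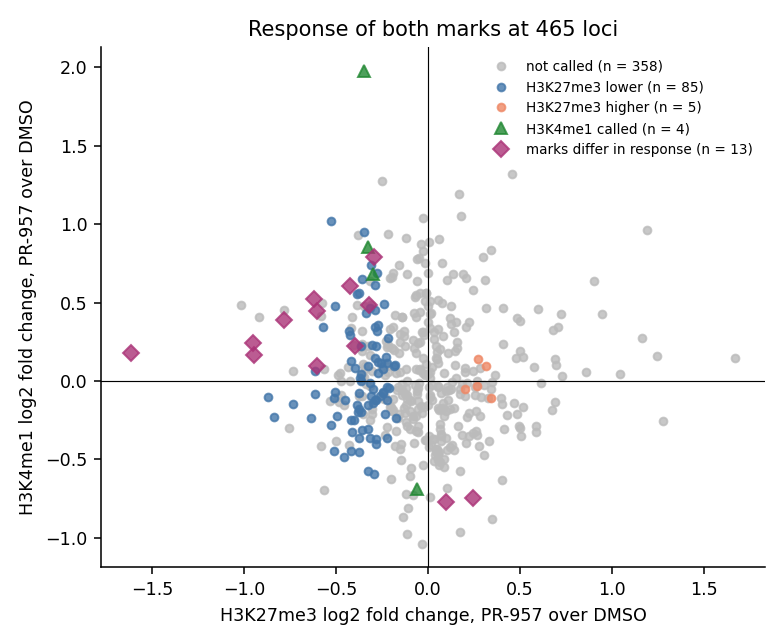
Response of both modifications at the 465 poised loci tested in both, with the H3K27me3 log2 fold change, PR-957 over DMSO, on the horizontal axis and that of H3K4me1 on the vertical axis. Each point is a locus, and a locus is drawn in 1 class, with the 13 where the modifications differed taken out of the others. The loci called lower in H3K27me3 spread on both sides of 0 in H3K4me1.

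Across the poised loci the fitted log2 fold changes of the 2 modifications showed little correlation. Pearson's r was -0.031 and Spearman's rho -0.074 over 465 loci, which share libraries and, in part, intervals. The counting error of H3K4me1 can hide a relation, and the H3K27me3 interval was wider than the locus at 352 of 480. A relation is therefore not shown to be absent. Among the 95 loci called lower in H3K27me3 the H3K4me1 log2 fold change was below 0 at 47, with a median of 0.022. The DMSO levels per kb were as weakly related (r = -0.058). Both modifications were called at 2 loci, UBAC2 in opposite directions and CLXN in the same direction.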

How the data were processed

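Cut&Tag libraries for H3K4me1, H3K27me3, H3K27ac and H3K4me3 from MOLM-13 cells were analysed, 2 per treatment and modification. The values were whole-number counts that the authors deposited per library, unnormalized, on 1 interval list per modification. Reads had been aligned to hg38. The submitters' processing notes name Trimmomatic 0.39, Bowtie2 2.2.5, Picard 2.27.1, SAMtools 1.7, SEACR 1.3 and deepTools 3.5.1, while the methods name MACS2 or SEACR for peaks. The counter and the handling of duplicates are not given in the sources used here. A figure legend of the study gives 48 h of treatment for Cut&Tag, whereas the labels give 72 h. The 2 IgG samples were not used here, and a few names and 1 sequence are not reported here.

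Overlapping intervals (at least 1 base) were merged into loci in Python 3.11.15 and annotated with GENCODE release 44. Coordinates follow the files. With edgeR 4.0.16 in R 4.3.3, filterByExpr (minimum count 10) selected intervals, TMM scaled the libraries and the quasi-likelihood test compared treatments, with Benjamini-Hochberg adjustment over all intervals at 0.05. The interaction was fitted over both modifications together. Alternatives were other scalings, DESeq2 1.42.0, limma-voom (limma 3.58.1, interaction), count filters, 1 interval per locus, chromosomes 1 to 22, the replicate number as a block, other membership rules and leaving out each library. Offsets on counts per kb were added after seeing the data and are not among the alternatives given for single named loci. Libraries of 1 group differed by more than sampling noise. The scripts were tested on simulated data.

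The poised loci and the gene lists were chosen with earlier results of these data known. Loci were named by rule: the 5 with the smallest p per direction and modification among those whose treatments did not overlap (3 where fewer passed), those called in both modifications, the 5 with the smallest interaction p, the 3 at each extreme, and the 3 of a list with the highest H3K4me1. Names outside it are marked where they were chosen after seeing values, and called members of a list are given with it.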

Additional observations from a re-analysis of the deposited data

Results flagged for a closer look

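The difference between the H3K4me1 and H3K27me3 responses to PR-957 passed the interaction test of edgeR at 13 of 465 poised loci, 11 with H3K4me1 above H3K27me3 and 2 below, against a background of 0.988% above and 0.728% below. With library sizes alone 9 were above and 16 below, and without H3K4me1 DMSO replicate 1 there were 7 above and 8 below. It was 1.15 near UBAC2 and 1.19 near CHCHD6 on the log2 scale, and these 2 kept the call in all 12 alternatives. The other 11 lost it in at least 1 alternative. None of the 12 alternatives used cyclic loess, GC-trend or counts-per-kb offsets.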

How the results depend on the processing

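In H3K4me1 the 7 calls became 0 under DESeq2, 4 with 1 interval per locus, 4 where H3K27me3 had to cover at least 50% of the locus, and 2 to 7 without 1 library. The H3K4me1 median became 0.080 with GC-trend offsets and ran from -0.068 to 0.051 without 1 library. In H3K27me3 the median became 0.093 under library size only, -0.043 with cyclic loess offsets, -0.094 with GC-trend offsets, -0.14 with 1 interval per locus, -0.11 with at least 50% cover and -0.10 to -0.064 without 1 library. Its 101 calls ran from 72 to 89 without 1 library and the 88 intervals from 60 to 76. H3K4me3 gave 1 call under library size only and 1 with the replicate block. The interaction gave 25 calls under library size only (9 above and 16 below), 3 under limma-voom and 2 to 21 without 1 library, the 21 without H3K4me1 DMSO replicate 2. The cause of these changes was not tested. The number of poised loci ran from 352 to 531 under other membership rules.

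The labels do not say what a replicate number marks, so the numbers were not taken as pairs. Deviations of equal numbers correlated at 0.0068 in H3K4me1, -0.0069 in H3K27me3 and 0.17 in H3K4me3. With the replicate number as a block, 7 loci were called in H3K4me1, 88 in H3K27me3 (85 lower and 3 higher), 1 in H3K4me3 and 10 in the interaction. The median locus held 42 to 79.5 H3K4me1 counts per library, and a change that was not called at this depth is not shown to be absent.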
